A study of Mus musculus with 32 samples.

Results

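The 5 genes of the extracellular adenosine pathway followed here were Entpd1, Nt5e, Adora2a, P2rx7 and Ada. They were found by their mouse gene symbol, and all 5 were present among the 16741 genes of the RNA table. Donor T cells of C57Bl6 mice were sorted from spleen and lymph nodes in a model of graft-versus-host disease (GVHD) and measured by bulk RNA sequencing in 31 libraries of 10 groups. Before transplantation (day 0) there were 2 libraries each of CD4 cells, CD8 cells and regulatory T cells (Treg). After transplantation, labelled day 6 in the sample titles and day 8 in the series description, CD4 and CD8 cells came from syngeneic recipients without treatment (3 libraries each), from allogeneic Balb/c recipients with untreated GVHD (4 each) and from allogeneic recipients given Treg on day 0 (4 each, called Treg-treated here). Treg were recovered from Treg-treated recipients in 3 libraries. Cells called CD4 or CD8 are taken here as conventional donor T cells, and markers of other cells in these libraries are given below. The labels name neither the age or sex of the mice nor how the Treg were sorted, and do not say whether each library was 1 mouse, so p-values measure the spread between libraries, which may be technical.

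ATP released by activated or dying cells acts as a danger signal outside the cell. The ectoenzyme CD39, encoded by Entpd1, removes phosphates from ATP and ADP to leave AMP, and the ectoenzyme CD73, encoded by Nt5e, converts AMP to adenosine. Adenosine acts on T cells mainly through the receptor encoded by Adora2a, which raises cyclic AMP and dampens activation. P2rx7 encodes P2X7, an ion channel that extracellular ATP opens and that in mouse T cells can also be activated through ADP-ribosylation by ART2 enzymes. Ada encodes adenosine deaminase, which converts adenosine to inosine and so ends the signal. Mouse Treg are known to carry both CD39 and CD73.

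Values are normalised counts, that is reads per gene scaled between libraries by the authors. The reads behind them could not be recovered, so the depth is unknown. They are not corrected for gene length, so levels are compared between libraries of 1 gene and never between genes. Averaged over genes, a library had between 1227 and 2385 normalised counts. Cd4 and Cd8a separated CD4 from CD8 libraries except in CD4 syngeneic replicate JL019-2, which had 1659 for Cd4 and 1956 for Cd8a. The 14 myeloid markers of that library summed to 3.59e+06 normalised counts. All 14 had a higher mean in the CD4 syngeneic than in the CD4 allogeneic group, and without S100a8 and S100a9 the other 12 still summed to between 17535 and 851109 in the CD4 syngeneic libraries, against 1915 to 2845 in the CD4 allogeneic ones. In CD8 cells the same 12 summed to between 11059 and 14846 in syngeneic and between 2931 and 3552 in allogeneic libraries. Changes of the 5 genes against the CD4 syngeneic group are given below with and without replicate JL019-2. Foxp3, the defining transcription factor of Treg, was lower in the day 0 libraries labelled Treg (198 and 442) than in those labelled CD4 (1145 and 978), whereas 11 of 12 Treg markers had a higher mean in the former. The 12 markers summed to between 82627 and 89030 in day 0 Treg, against 15869 to 17374 in day 0 CD4 libraries, and to between 191375 and 259065 in recovered Treg. Foxp3 in recovered Treg was 265 to 293, above Treg-treated CD4 (127 to 178) and CD8 (109 to 236) libraries. It was below allogeneic CD4 libraries (337 to 579), and allogeneic CD8 libraries ranged from 103 to 453. In sorted bulk samples, fewer cells of a type and less RNA per cell cannot be told apart.

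In RefSeq (GRCm38.p6) the genes are placed as Entpd1 (ENSMUSG00000048120) at chr19:40612366-40741602, Nt5e (ENSMUSG00000032420) at chr9:88327609-88372089, Adora2a (ENSMUSG00000020178) at chr10:75316877-75334792, P2rx7 (ENSMUSG00000029468) at chr5:122643927-122692336 and Ada (ENSMUSG00000017697) at chr2:163726571-163750239. Promoter windows of 4 of the 5 genes were matched by symbol in RefSeq (GRCm38.p6), as 6 entries of 300 bases, from 250 before to 50 after an annotated start. One window per gene is shown, because these genes moved between groups in different directions. Capitals mark every match, on either strand, of AP-1 (TGANTCA), CRE (TGACGTCA), the CCAAT box (CCAAT), the Sp1 box (GGGCGG), ETS (CCGGAAG), STAT (TTCNNNGAA), RUNX (TGTGGT), forkhead (GTAAACA), a T-box half-site (AGGTGTGA) and the NFAT core (GGAAA). Each window is written 5′ to 3′ on the strand of its gene.
Entpd1, chr19:40612116-40612415, plus strand: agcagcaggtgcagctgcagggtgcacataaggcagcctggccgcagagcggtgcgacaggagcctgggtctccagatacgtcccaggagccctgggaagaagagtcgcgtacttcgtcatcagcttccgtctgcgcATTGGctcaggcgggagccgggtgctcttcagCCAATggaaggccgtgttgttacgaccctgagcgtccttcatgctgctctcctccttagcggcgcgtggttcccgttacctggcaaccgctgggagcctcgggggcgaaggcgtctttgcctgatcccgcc
Nt5e, chr9:88327359-88327658, plus strand: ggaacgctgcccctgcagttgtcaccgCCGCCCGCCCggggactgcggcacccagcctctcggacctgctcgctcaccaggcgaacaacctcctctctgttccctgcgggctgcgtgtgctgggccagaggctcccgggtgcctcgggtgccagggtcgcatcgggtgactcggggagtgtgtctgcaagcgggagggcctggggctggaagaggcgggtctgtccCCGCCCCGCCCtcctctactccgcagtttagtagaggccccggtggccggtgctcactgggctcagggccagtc
P2rx7, chr5:122643677-122643976, plus strand: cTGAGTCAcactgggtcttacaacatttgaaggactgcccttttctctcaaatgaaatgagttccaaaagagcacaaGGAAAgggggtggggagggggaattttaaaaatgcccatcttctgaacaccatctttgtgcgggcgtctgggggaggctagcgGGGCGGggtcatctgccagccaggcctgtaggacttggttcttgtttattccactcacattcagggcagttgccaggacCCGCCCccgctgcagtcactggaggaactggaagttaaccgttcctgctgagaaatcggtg
Ada, chr2:163750190-163750489, minus strand: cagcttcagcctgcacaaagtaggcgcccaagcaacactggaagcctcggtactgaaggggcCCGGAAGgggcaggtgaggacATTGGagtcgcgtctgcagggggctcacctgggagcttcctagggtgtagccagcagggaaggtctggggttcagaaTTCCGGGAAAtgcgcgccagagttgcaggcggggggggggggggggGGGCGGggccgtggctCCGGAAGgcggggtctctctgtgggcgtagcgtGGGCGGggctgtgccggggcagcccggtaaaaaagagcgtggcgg

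The Entpd1 window held 2 CCAAT boxes and 23 CpG dinucleotides, against a median of 7 CpG over all 32851 windows of this length. The Nt5e window also had 23 CpG, with 4 Sp1 boxes in 2 overlapping pairs. The P2rx7 window had 8 CpG, 1 AP-1 match near its 5′ end, 2 Sp1 boxes and 1 NFAT core. The Ada window had 20 CpG, 1 CCAAT box, 2 Sp1 boxes, 2 ETS matches and 1 STAT match that overlapped 1 NFAT core. Further entries were chr19:40659520-40659819 for Entpd1, with 10 CpG, 1 CCAAT box, 1 RUNX match and 2 NFAT cores, and chr5:122650133-122650432 for P2rx7, with 4 CpG and none of the 10 motifs. A CCAAT box occurred in 37.4% of all windows, an Sp1 box in 35.7%, an NFAT core in 61.3%, RUNX in 16.8%, ETS in 8.86%, STAT in 8.30% and AP-1 in 7.81%. CRE occurred in 1.79%, forkhead in 3.65% and the T-box half-site in 1.28% of windows, and in none of the 6 shown or named here.

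The genes differed in which population carried them. Entpd1 ranged over 32.4-fold between group means, from CD8 cells at day 0 to recovered Treg. Nt5e ranged over 16.2-fold, from allogeneic CD8 cells to day 0 Treg. Ada ranged over 19.9-fold and in the reverse sense, with its lowest mean in day 0 Treg and its highest in syngeneic CD8 cells. P2rx7 ranged over 13.1-fold, from day 0 CD8 cells to Treg-treated CD4 cells. Adora2a varied least, 4.45-fold between syngeneic CD4 and allogeneic CD8 cells, or 3.76-fold between day 0 and allogeneic CD8 cells without CD4 syngeneic replicate JL019-2. The other 4 ranges do not involve the syngeneic CD4 group. Over the 10 group means of log2(value + 1), Pearson's r was 0.81 between Entpd1 and Adora2a and -0.60 between P2rx7 and Ada, a description over groups that share cell types and recipients. For Entpd1 and Nt5e, the enzymes that act in sequence, it was -0.13. Without that replicate the 3 values were 0.86, -0.60 and -0.14.

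**Figure D1:**
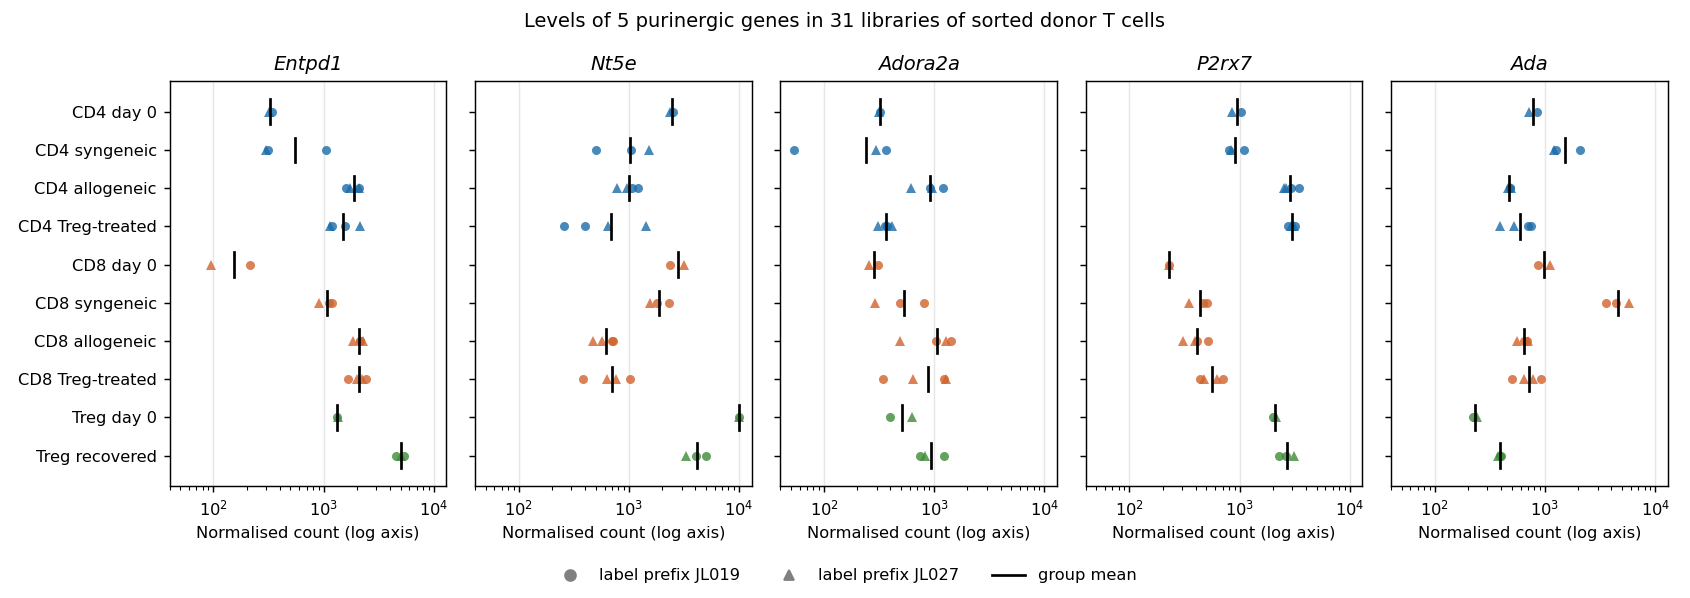
Normalised counts (log axis) of the 5 genes in 31 libraries. Each point is a library, with shape for the label prefix and colour for the cell type, and black bars are group means. Recovered Treg lie above all other groups for Entpd1, day 0 Treg above all others for Nt5e, and syngeneic CD8 cells above all others for Ada.

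Changes were tested with limma on log2(value + 1) over all genes, and a gene was called at a Benjamini-Hochberg adjusted p under 0.05. Groups whose libraries do not overlap are said to be apart. Of all genes, 60.2% were apart between Treg and CD4 cells at day 0 and 50.9% between recovered and day 0 Treg. For recovered Treg it was 36.5% against Treg-treated CD4 and 42.2% against Treg-treated CD8 cells. Between CD8 and CD4 cells it was 49.9% at day 0 and 18.7% in allogeneic recipients. Between allogeneic and syngeneic recipients it was 23.2% in CD4 and 30.3% in CD8 cells. At day 0, 4 of the 5 genes were called between Treg and CD4 cells, 3 higher and 1 lower in Treg, where 3.89% of all genes were called. In Treg-treated recipients, 3 were called between recovered Treg and CD4 cells, all higher (30% of all genes), and 4 between recovered Treg and CD8 cells, 3 higher and 1 lower (36.2%). Between recovered and day 0 Treg 1 was called (13.3%). The change over time of the Treg to CD4 difference was called for 1 of the 5 (4.71%). The median log2 change of the 5 was 1.16 at day 0 and 1.33 in Treg-treated recipients against CD4 cells, beside 0.07 and 0.14 over all genes.

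**Figure D2:**
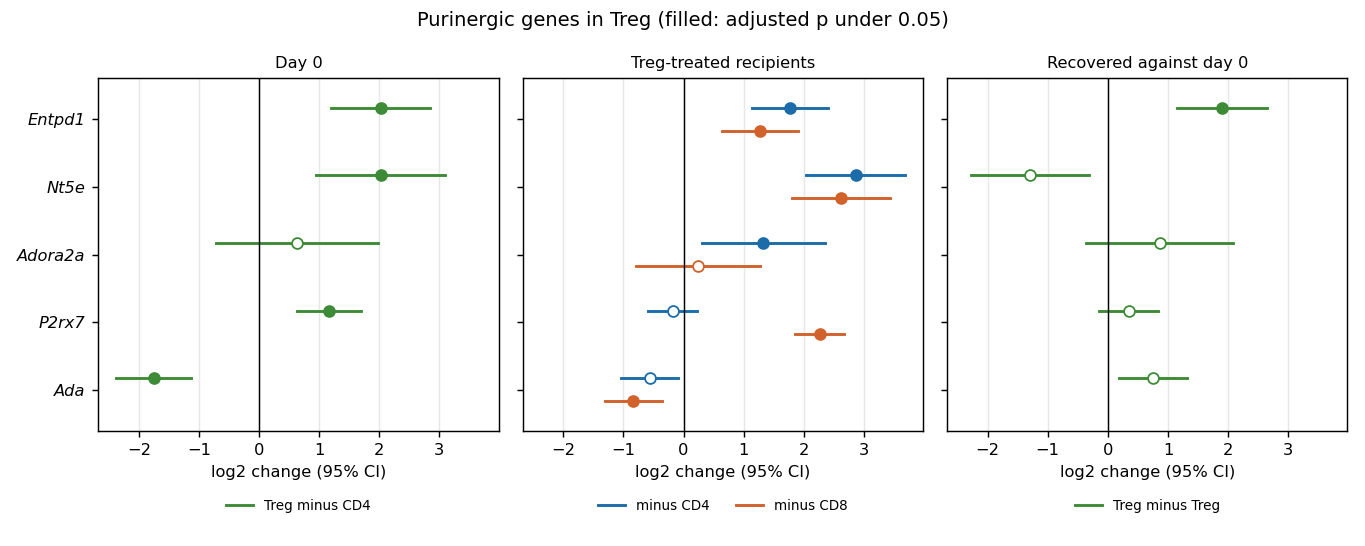
Log2 change with its 95% confidence interval for each gene between Treg and CD4 cells at day 0 (left), between recovered Treg and CD4 or CD8 cells of Treg-treated recipients (middle), and between recovered and day 0 Treg (right). Filled points were called. Entpd1 and Nt5e lie above 0 in the 3 comparisons of Treg with conventional cells, and between recovered and day 0 Treg Entpd1 lies at 1.90 and Nt5e at -1.30.

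Among conventional cells, 1 of the 5 genes was called between syngeneic recipients and day 0 in CD4 cells (13% of all genes) and 3 in CD8 cells (24.2%). For allogeneic recipients against day 0 the calls were 3 for CD4 (24%) and 4 for CD8 cells (30.4%). Between allogeneic and syngeneic recipients, CD4 cells had 4 calls, 3 of them higher and 1 lower (14.6%), and CD8 cells 3, of which 1 was higher and 2 were lower (21.1%). The difference of these 2 changes between CD8 and CD4 cells was called for 2 genes (4.65%). Without CD4 syngeneic replicate JL019-2 the CD4 counts were 0 against day 0 (7.93% of all genes) and 4 between the recipients (10.9%), and the difference was called for 3 (3.97%). Between Treg-treated and allogeneic recipients, 1 was called in CD4 cells (22.2%). In CD8 cells limma called 0 of the 5 (0.0657%), and 1 had an unadjusted p under 0.05. The difference of the Treg-treatment changes between CD8 and CD4 cells was called by limma for 0 (0.00597%), with 0 at an unadjusted p under 0.05. Between CD8 and CD4 cells, 1 was called at day 0 (3.32%) and 1 in allogeneic recipients (6.15%). The 36 calls over these 17 comparisons had the same sign in the libraries of both label prefixes, JL019 and JL027. These are the libraries that gave the calls, so the signs are not a separate test. The comparisons of allogeneic with syngeneic recipients, with day 0 and with Treg-treated recipients share the allogeneic libraries.

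**Figure D3:**
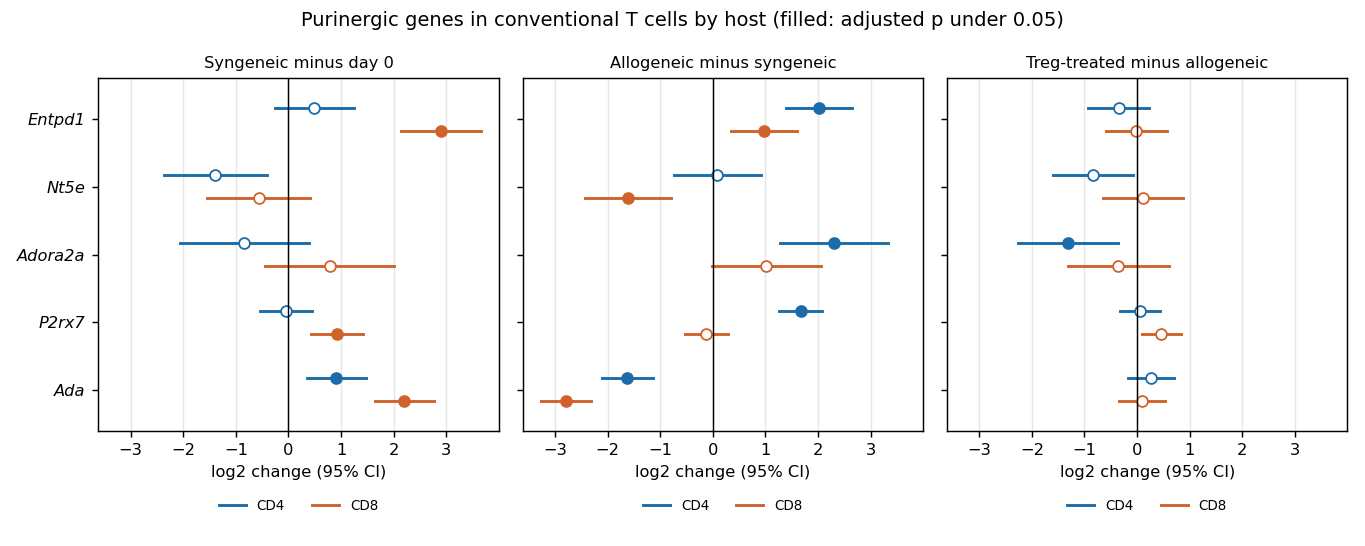
Log2 change with its 95% confidence interval for each gene in CD4 and CD8 cells between syngeneic recipients and day 0 (left), allogeneic and syngeneic recipients (middle), and Treg-treated and allogeneic recipients (right). Filled points were called. Ada lies above 0 on the left and below 0 in the middle in both cell types, P2rx7 in the middle panel lies at 1.67 in CD4 and -0.12 in CD8 cells, and on the right only Adora2a in CD4 cells was called, at -1.31.

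Entpd1, the gene of CD39, was highest in Treg recovered from allogeneic recipients. Its normalised counts there were 4571, 5333 and 5087, against 1556, 1202, 2143 and 1147 in Treg-treated CD4 cells and 2423, 1674, 2014 and 2216 in Treg-treated CD8 cells. The recovered Treg libraries did not overlap any other group. The log2 change was 1.77 against CD4 cells (SE 0.31, adjusted p 0.000156 by limma) and 1.27 against CD8 cells (SE 0.31, adjusted p 0.00207 by limma). Day 0 Treg had 1323 and 1343 and day 0 CD4 cells 338 and 318, a log2 change of 2.02 (SE 0.40, adjusted p 0.00253 by limma). From day 0 to recovery, Entpd1 in Treg rose by 1.90 on the log2 scale (SE 0.37, adjusted p 0.000533 by limma), and by 1.90 and 1.92 within the 2 prefixes. The Treg to CD4 difference was 2.02 at day 0 and 1.77 in Treg-treated recipients, a change of -0.25 (95% interval -1.29 to 0.78) that was not called. Myeloid cells can also carry CD39. The 12 myeloid markers above summed to between 1428 and 2506 in recovered Treg and to between 3245 and 14139 in Treg-treated CD4 libraries. At day 0 they were higher in Treg, at 2352 to 3369 against 803 to 1816 in CD4 libraries, as were 11 B cell markers, at 1396 to 1710 against 779 to 995. Other lists were lower in day 0 Treg than in day 0 CD4 libraries. The 5 endothelial markers were at 2811 to 3601 against 4706 to 5213, and the 9 erythroid ones at 132 to 460 against 769 to 1501. The 5 NK cell markers were at 274 to 453 against 514 to 575. The part of these markers in the Entpd1 results was not tested.

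Entpd1 was also higher in conventional cells of allogeneic recipients. CD4 cells had 2074, 1612, 2116 and 1720.2 in allogeneic and 312, 1040.0 and 302 in syngeneic recipients, the value of 1040.0 being that of replicate JL019-2. The groups did not overlap, which held for 23.2% of all genes. The log2 change of Entpd1 was 2.02 (SE 0.31, adjusted p 3.02e-05 by limma), or 2.60 without that replicate. Without it the syngeneic mean was 307 ± 7.36 (SD, n = 2), beside 328 ± 13.7 (SD, n = 2) at day 0. In CD8 cells Entpd1 was 214 and 94.3 at day 0, 1110.3, 1194 and 914 in syngeneic and 2121, 2116, 2281 and 1847 in allogeneic recipients, with no overlap between these 3 groups. The log2 change from day 0 to syngeneic recipients was 2.90 (SE 0.37, adjusted p 3.78e-06 by limma), and in CD4 cells 0.49 (SE 0.37, adjusted p 0.417 by limma), or -0.09 without replicate JL019-2. Whether these changes differ between the cell types was not tested. Of all genes, 51.5% had CD8 libraries apart between syngeneic recipients and day 0. It was 49.9% between allogeneic recipients and day 0, and 30.3% between allogeneic and syngeneic recipients. The 12 myeloid markers summed to between 3469 and 4502 in day 0 and between 11059 and 14846 in syngeneic CD8 libraries, and the 5 NK cell markers to between 1561 and 1868 and between 5894 and 6157. The 11 B cell markers were at 2391 to 3131 and at 3357 to 4158, and the 5 endothelial markers at 2748 to 3335 and at 1093 to 1582. What part any of these lists has in the CD8 change was not tested. From syngeneic to allogeneic recipients the change of Entpd1 was 0.97 in CD8 cells (SE 0.31, adjusted p 0.0241 by limma). That last call was lost without CD8 syngeneic replicate JL027, CD8 syngeneic replicate JL019-1 or CD8 allogeneic replicate JL027-1, with adjusted p of up to 0.113, and with the trend of each library with gene length removed (0.79, adjusted p 0.0697). Against day 0, allogeneic cells were higher by 2.51 in CD4 (SE 0.35, adjusted p 3.07e-06 by limma) and by 3.87 in CD8 cells (SE 0.35, adjusted p 1.83e-09 by limma). The difference of the allogeneic changes between CD8 and CD4 cells, -1.05 (SE 0.43, adjusted p 0.199 by limma), was not called. It was -1.63 with an adjusted p of 0.00299 without CD4 syngeneic replicate JL019-2, and -1.64 with an adjusted p of 1.10e-06 with array weights. In the fit with array weights, CD8 syngeneic replicate JL019-1 had a weight of 113 and each other library one of at most 2.08, and the estimation stopped before convergence. Treg-treated and allogeneic libraries overlapped in both cell types, with log2 changes of -0.35 in CD4 cells (95% interval -0.93 to 0.23) and -0.02 in CD8 cells (-0.60 to 0.57).

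**Figure D4:**
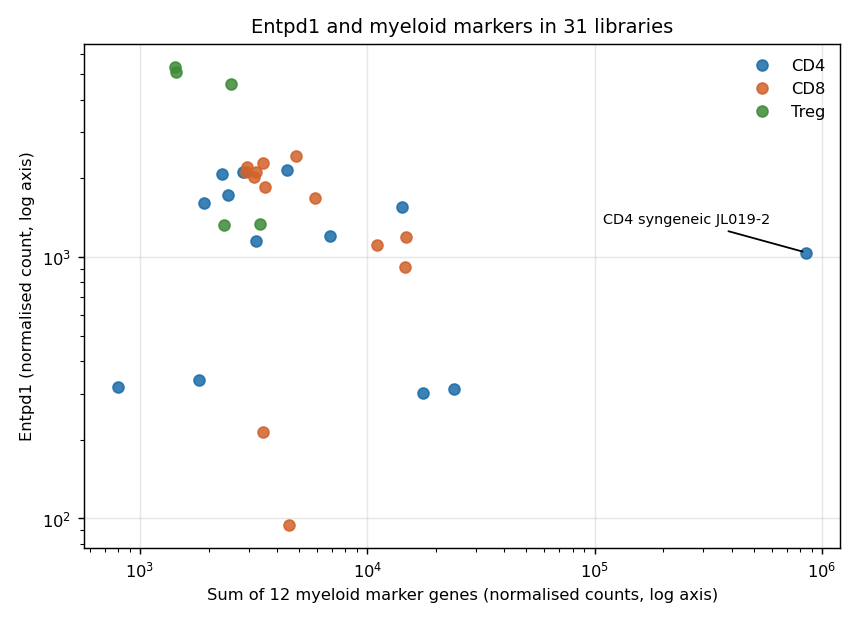
Entpd1 against the summed normalised counts of 12 myeloid marker genes (both log axes), 1 point per library, with colour for the cell type. CD4 syngeneic replicate JL019-2 lies at 851109 on the marker axis and at 1040.0 for Entpd1, apart from the other CD4 syngeneic libraries at 302 and 312. The part of these markers in the Entpd1 values was not tested.

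Nt5e, the gene of CD73, was highest in Treg before transfer. Day 0 Treg had 9977 and 9932, day 0 CD4 cells 2521 and 2375, and day 0 CD8 cells 2372 and 3174. The Treg libraries did not overlap those of any other group, and the log2 change against CD4 cells was 2.02 (SE 0.52, adjusted p 0.0232 by limma). Without any 1 of the 4 day 0 libraries of this comparison, the call was lost, at changes of 1.98 to 2.07 and adjusted p of 0.126 to 0.154. Recovered Treg had 4989.5, 4092 and 3268, all below day 0 Treg and above every conventional library. The change from day 0, -1.30 (SE 0.48, adjusted p 0.0750 by limma), was not called. It was called with only these groups in the model (adjusted p 0.000947), with quantile normalisation (-1.70, adjusted p 0.00629) and with array weights (adjusted p 0.00211).

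Nt5e was lower in conventional cells of allogeneic recipients than at day 0, and syngeneic libraries of both cell types also lay below day 0 without a called change. In Treg-treated recipients CD4 cells had 402, 256, 1435 and 649 and CD8 cells 1029.7, 379, 769 and 626. The log2 change of recovered Treg was 2.86 against these CD4 cells (SE 0.40, adjusted p 1.05e-05 by limma), with 3.81 in prefix JL019 and 1.76 in prefix JL027, and 2.62 against the CD8 cells (SE 0.40, adjusted p 1.21e-05 by limma). CD4 cells of allogeneic recipients, at 1207, 1059, 963 and 784, were lower than at day 0, with a log2 change of -1.30 (SE 0.45, adjusted p 0.0361 by limma). This call was lost without either day 0 library, without CD4 allogeneic replicate JL027-1 or JL027-2 (adjusted p up to 0.188), and with the log2 mean value of each library as a covariate (-0.54, adjusted p 0.247). CD8 cells of allogeneic recipients, at 714, 707, 568 and 474, were lower than at day 0, at -2.17 (SE 0.45, adjusted p 0.000558 by limma). The 11 B cell markers summed to 2391 to 3131 in the day 0 and to 1187 to 1327 in these allogeneic CD8 libraries. The 9 erythroid markers were at 32040 to 36283 and at 585 to 14837, and the NK cell and endothelial sums overlapped. The part of these markers in this change was not tested. Syngeneic CD4 libraries all lay below day 0, at -1.39 (adjusted p 0.0542 by limma), or -0.95 (adjusted p 0.304) without replicate JL019-2. That change was called with array weights (-0.97, adjusted p 0.00996), the length trend removed (0.0405), median centring (0.0188) or quantile normalisation (0.0102) and without CD4 syngeneic replicate JL027 (0.0182). In syngeneic CD8 cells, whose libraries also all lay below day 0, the change was -0.57 (adjusted p 0.390 by limma). Of all genes, 46% in CD4 and 51.5% in CD8 cells had libraries apart between these groups.

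Nt5e was lower in allogeneic than in syngeneic CD8 cells, and no change was called in CD4 cells. Syngeneic CD8 cells had 1787, 2298 and 1546, above every allogeneic CD8 library, a log2 change of -1.61 (SE 0.40, adjusted p 0.00419 by limma). The 5 NK cell markers summed to 5894 to 6157 in these syngeneic and to 1503 to 1889 in these allogeneic libraries. The 11 B cell markers were at 3357 to 4158 and at 1187 to 1327, and the 5 endothelial markers at 1093 to 1582 and at 2599 to 2989. With the myeloid sums given above, these lists did not overlap between the groups, and their part in the Nt5e change was not tested. Syngeneic CD4 cells had 1049.5, 506 and 1531 and overlapped the allogeneic ones, with a log2 change of 0.09 (SE 0.40, adjusted p 0.926 by limma), or -0.35 without replicate JL019-2, which had 506. The difference between the 2 cell types, -1.69 (SE 0.57, adjusted p 0.0903 by limma), was not called, and was -1.25 (adjusted p 0.274) without CD4 syngeneic replicate JL019-2. It was called with the CD4 and CD8 libraries of each recipient paired as a replicate block (adjusted p 0.0490), with the length trend removed (0.0498), with median centring (0.0388), with the log2 mean value as a covariate (0.00414), with array weights (0.00767) and without CD4 syngeneic replicate JL027 (0.0370). From allogeneic to Treg-treated recipients the CD4 change was -0.83 (SE 0.37, adjusted p 0.103 by limma). One Treg-treated library, replicate JL027-1, had 1435 and lay above all CD4 allogeneic libraries, and the other 3 lay below them all. Without it the change was -1.29 (adjusted p 0.00441 by limma). For Cd4 that library had 17587, within the 16706 to 21481 of the 4 CD4 allogeneic libraries, and the other 3 Treg-treated CD4 libraries had 8722 to 9369.5. The slope of log2 values on log2 gene length was 0.016 in that library, 0.019 to 0.045 in the allogeneic ones and -0.069 to -0.12 in the other 3. The part of these differences in the result was not tested.

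Adora2a, the gene of the main adenosine receptor of T cells, was higher in the allogeneic than in the syngeneic and Treg-treated CD4 libraries. Allogeneic CD4 cells had 1189, 922, 611 and 950.1, and day 0 CD4 cells 325 and 317. Syngeneic CD4 cells had 365, 52.9 and 296, and Treg-treated CD4 cells 354, 376, 409 and 307. No allogeneic library overlapped these 3 groups, as for 55.1% of all genes against day 0, 23.2% against syngeneic and 22.2% against Treg-treated cells. The log2 change of allogeneic against syngeneic cells was 2.31 (SE 0.50, adjusted p 0.00169 by limma), or 1.44 (adjusted p 0.0326 by limma) without replicate JL019-2, which had 52.9. With only these 2 groups in the model the adjusted p was 0.0654. Against day 0 the change was 1.48 (SE 0.57, adjusted p 0.0599 by limma), not called. It was called with only these groups in the model (adjusted p 0.000270), with median centring (0.0433), with the log2 mean value as a covariate (2.43, 7.94e-05), with array weights (1.26e-05) and without CD4 allogeneic replicate JL027-1 (0.0499).

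Treg-treated CD4 cells were lower than allogeneic ones in Adora2a, at -1.31 (SE 0.46, adjusted p 0.0431 by limma), and at -1.52 and -1.10 within prefixes JL019 and JL027. Their mean was 361 ± 42.6 (SD, n = 4) against 918 ± 237 (SD, n = 4). The call was lost without any 1 of CD4 allogeneic replicates JL019-1, JL019-2 and JL027-2 or of CD4 Treg-treated replicates JL019-1, JL019-2 and JL027-2, at changes of -1.17 to -1.33 and adjusted p of 0.0848 to 0.113. The share of all genes called was between 2.81% and 13.6% without these libraries. It was also lost with libraries centred on their medians (-1.11, adjusted p 0.0530), with quantile normalisation (-1.05, adjusted p 0.0943) and with the log2 mean value of each library as a covariate (-0.53, adjusted p 0.421). The mean normalised count of a library moved with the groups, from 1504 to 1669 in CD4 allogeneic and from 1608 to 2118 in CD4 Treg-treated libraries, and its part in the result was not tested further. Of the 14 myeloid markers 9 had a higher mean in the Treg-treated group, and their sums were 5512 to 11116 in allogeneic and 23739 to 86389 in Treg-treated libraries. The 5 endothelial markers summed to 3528 to 4298 and to 1400 to 3165. Their part in the result was not tested, nor was that of the myeloid markers.

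In CD8 cells Adora2a spread widely within groups. Allogeneic CD8 cells had 1035, 1429, 488 and 1284, and Treg-treated CD8 cells 1221, 341, 1281 and 647. These groups overlapped, with a log2 change of -0.36 (95% interval -1.31 to 0.60). The difference of the Treg-treatment changes between CD8 and CD4 cells was 0.96 (95% interval -0.39 to 2.30, adjusted p 0.898 by limma) and was not called. With array weights it was 1.20 (adjusted p 0.0292). Against day 0 CD8 cells, at 308 and 256, the allogeneic ones were higher by 1.80 (SE 0.57, adjusted p 0.0171 by limma). That call was lost without either day 0 CD8 library (adjusted p 0.0796 and 0.0947). Syngeneic CD8 cells had 488, 805 and 287 and overlapped the allogeneic ones, with a change of 1.02 (SE 0.50, adjusted p 0.158 by limma), called with array weights (1.27, adjusted p 3.50e-07), where 61.6% of all genes were called and 1 syngeneic library carried nearly all of that group's weight.

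Recovered Treg had 1213, 741 and 823 for Adora2a and day 0 Treg 396 and 626, a change of 0.86 (SE 0.60, adjusted p 0.414 by limma), which was called with only these groups in the model (adjusted p 0.0481) and with the covariate (1.89, adjusted p 0.00287). Against Treg-treated CD4 cells, which they did not overlap, recovered Treg were higher by 1.33 (SE 0.50, adjusted p 0.0458 by limma). With the label prefix as a replicate block the adjusted p was 0.0535. The call was lost without any 1 of the 3 recovered Treg libraries or of CD4 Treg-treated replicates JL019-1, JL019-2 and JL027-2 (adjusted p up to 0.164), and with median centring, quantile normalisation or the log2 mean value as a covariate, which gave 0.47. Against Treg-treated CD8 cells the change was 0.24 (95% interval -0.79 to 1.27).

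P2rx7, the gene of the ATP-gated P2X7 channel, was lower in CD8 than in CD4 cells at day 0 and in allogeneic recipients. At day 0 CD4 cells had 1025 and 848 and CD8 cells 229.7 and 227, a log2 change of -2.03 in CD8 cells (SE 0.26, adjusted p 7.81e-06 by limma). In allogeneic recipients CD4 cells had 2951, 3454, 2529.8 and 2618 and CD8 cells 410.4, 517, 396 and 303, a change of -2.84 (SE 0.18, adjusted p 3.78e-11 by limma). No CD8 library reached the lowest CD4 library at either time. Marker sums of other cells also differed at day 0, with 9 erythroid markers at 32040 to 36283 in CD8 and 769 to 1501 in CD4 libraries, 11 B cell markers at 2391 to 3131 and 779 to 995, and 5 NK cell markers at 1561 to 1868 and 514 to 575. In allogeneic recipients the NK cell markers were at 1503 to 1889 in CD8 and 455 to 574 in CD4 libraries. The erythroid and B cell sums overlapped there. The 5 endothelial markers were lower in CD8 libraries. They were at 2748 to 3335 against 4706 to 5213 at day 0, and 2599 to 2989 against 3528 to 4298 in allogeneic recipients. The 12 myeloid markers were higher in CD8 libraries. These were at 3469 to 4502 against 803 to 1816 at day 0, and 2931 to 3552 against 1915 to 2845 in allogeneic recipients. The part of these markers in the P2rx7 differences was not tested. Both calls held without any 1 library of these groups in turn and under the other settings run.

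P2rx7 rose from syngeneic to allogeneic recipients in CD4 cells, and no change was called in CD8 cells. Syngeneic CD4 cells had 1089, 799 and 842, overlapping day 0, and allogeneic CD4 cells lay above all of them, a change of 1.67 (SE 0.20, adjusted p 8.70e-07 by limma). Without replicate JL019-2 it was 1.58. Syngeneic CD8 cells had 502, 469 and 347 and overlapped the allogeneic ones, with a change of -0.12 (95% interval -0.53 to 0.29). The difference between CD8 and CD4 cells was -1.79 (SE 0.28, adjusted p 0.000199 by limma), with -1.85 and -1.61 within the 2 prefixes, and was called without any 1 of the 14 libraries in turn. Without CD4 syngeneic replicate JL019-2 it was -1.70. Both host groups of CD8 cells were above day 0, syngeneic by 0.92 (SE 0.24, adjusted p 0.00713 by limma) and allogeneic by 0.80 (SE 0.23, adjusted p 0.00770 by limma). Each of these 2 calls was lost without CD8 day 0 replicate JL019 (adjusted p 0.0700 and 0.0614), and the first with only its 2 groups in the model (adjusted p 0.0694).

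Treg-treated CD4 cells had 2726, 3209.6, 3141 and 2909 for P2rx7 and overlapped allogeneic ones, with a change of 0.06 (95% interval -0.32 to 0.44). Treg-treated CD8 cells had 440.1, 709, 619.7 and 474, a change of 0.46 from allogeneic recipients (SE 0.18, adjusted p 0.378 by limma, unadjusted p 0.0187). Day 0 Treg, at 2026 and 2135, were above day 0 CD4 cells by 1.16 (SE 0.26, adjusted p 0.00782 by limma), a call lost without Treg day 0 replicate JL019 or JL027 or CD4 day 0 replicate JL027 (adjusted p up to 0.127). Recovered Treg, at 2256, 2623 and 3129, overlapped Treg-treated CD4 cells, with a change of -0.18 (95% interval -0.58 to 0.23). They were above Treg-treated CD8 cells by 2.26 (SE 0.20, adjusted p 2.09e-09 by limma). The Treg to CD4 difference changed by -1.33 from day 0 to recovery (SE 0.33, adjusted p 0.0161 by limma). P2rx7 within Treg changed by 0.35 (95% interval -0.14 to 0.83). The CD4 means in this difference were 936 ± 125 (SD, n = 2) at day 0 and 2996 ± 221 (SD, n = 4) in Treg-treated recipients. In allogeneic recipients, which do not enter it, CD4 cells changed from day 0 by 1.62 (SE 0.23, adjusted p 3.21e-06 by limma). The call of -1.33 was lost without CD4 day 0 replicate JL027, either day 0 Treg library or recovered Treg replicate JL019-1, at adjusted p of 0.0516 to 0.116.

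Ada, the gene of adenosine deaminase, was highest in cells of syngeneic recipients and lowest in Treg. Syngeneic CD8 cells had 4369, 3603 and 5775, against 858 and 1107 at day 0 and 689, 647, 708 and 559.8 in allogeneic recipients. No library of these 3 groups overlapped another of them. The same held for 51.5% of all genes between syngeneic and day 0 libraries and 30.3% between allogeneic and syngeneic ones. The log2 change of Ada from day 0 to syngeneic recipients was 2.20 (SE 0.28, adjusted p 3.60e-06 by limma). From syngeneic to allogeneic recipients it was -2.79 (SE 0.23, adjusted p 5.40e-10 by limma). In CD4 cells Ada was 842 and 719 at day 0 and 1258, 2091 and 1196 in syngeneic recipients. It was 478, 479, 458 and 489 in allogeneic recipients, again without overlap. Of all genes, 46% were apart between syngeneic and day 0 and 23.2% between allogeneic and syngeneic CD4 libraries. The CD4 change of Ada from syngeneic to allogeneic recipients was -1.62 (SE 0.23, adjusted p 1.37e-05 by limma), or -1.36 without replicate JL019-2, which had 2091. The CD4 change from day 0 to syngeneic recipients, 0.91 (SE 0.28, adjusted p 0.0273 by limma), was not called without replicate JL019-2 (0.66, adjusted p 0.182) and without either day 0 CD4 library (adjusted p 0.0963 and 0.241). Nor was it called with median centring (0.75, adjusted p 0.130), with the log2 mean value as a covariate (0.35, adjusted p 0.219) and with only its 2 groups in the model (adjusted p 0.286).

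The allogeneic decrease of Ada was larger in CD8 than in CD4 cells (difference of log2 changes -1.17, SE 0.33, adjusted p 0.0353 by limma). Within the prefixes that difference was -0.81 and -1.86, and without CD4 syngeneic replicate JL019-2 it was -1.43 (adjusted p 0.00726). It was not called without any 1 of 9 of the 14 libraries (CD4 allogeneic replicates JL019-1, JL019-2 and JL027-2, CD4 syngeneic replicates JL019-1 and JL027, CD8 allogeneic replicates JL019-2 and JL027-2, and CD8 syngeneic replicates JL019-1 and JL027), with adjusted p of up to 0.123, nor with only the groups compared in the model (adjusted p 0.0604) or with quantile normalisation (-1.01, adjusted p 0.127). The summed myeloid markers were higher in the syngeneic than in the allogeneic libraries of both cell types, as given above. The 5 NK cell markers summed to between 5894 and 6157 in syngeneic and between 1503 and 1889 in allogeneic CD8 libraries. The B cell and endothelial sums of these CD8 libraries were given with Nt5e. The part of these markers in the Ada result was not tested. Allogeneic cells lay below day 0 without overlap, and of all genes 55.1% in CD4 and 49.9% in CD8 cells had libraries apart between these groups in either direction. The Ada change was -0.71 in CD4 cells (SE 0.26, with a limma adjusted p just above 0.05) and -0.59 in CD8 cells (SE 0.26, adjusted p 0.0909 by limma), neither called. The CD4 change was called with the log2 mean value as a covariate (-1.18, adjusted p 2.40e-06), array weights (0.000138), only these groups in the model (0.00406), quantile normalisation (0.0414) or a minimum mean of 10 (0.0461). The CD8 change was called with the covariate (-1.22, adjusted p 3.59e-06) and with array weights (-0.62, adjusted p 0.0273).

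Ada had its lowest group means in Treg, at both times. Day 0 Treg had 219.8 and 241, below every other library of the study, and were lower than day 0 CD4 cells, with a change of -1.75 (SE 0.30, adjusted p 0.000584 by limma). Recovered Treg had 391, 396 and 373, above day 0 Treg without a called change (0.75, SE 0.28, adjusted p 0.0772 by limma). It was called with only these groups in the model (adjusted p 0.0301) and with array weights (0.00352). Treg-treated CD8 cells, at 501, 911, 639 and 786, lay above all recovered Treg libraries, a change of -0.84 in Treg (SE 0.23, adjusted p 0.00616 by limma), or -0.30 (adjusted p 0.141) with the log2 mean value as a covariate. Treg-treated CD4 cells, at 753, 694, 389 and 528, overlapped recovered Treg through replicate JL027-1. That change, -0.57 (SE 0.23, adjusted p 0.0650 by limma), was not called. It was called with the recipient as a replicate block (adjusted p 0.0442), with array weights (0.000345), with median centring (-0.78, 0.0321), with quantile normalisation (0.0260) and without CD4 Treg-treated replicate JL027-1 (-0.75, 0.0107). From allogeneic to Treg-treated recipients Ada changed by 0.27 in CD4 cells (95% interval -0.17 to 0.71) and by 0.09 in CD8 cells (-0.35 to 0.53).

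The other genes of the pathway were described from 8 lists, in which 61 of 78 genes were measured. At day 0, 3 were higher and 3 lower in Treg than in CD4 cells (9.84% of the 61, beside 3.89% of all genes). Among these were Cd38, an ectoenzyme that consumes NAD, at 1228 ± 106 against 286 ± 22.2 (SD, n = 2 each), a log2 change of 2.10 (SE 0.24, adjusted p 2.21e-06 by limma), and Crem, a transcription factor induced by cyclic AMP, at 1244 ± 47.8 against 369 ± 6.56 (SD, n = 2 each). Between recovered Treg and Treg-treated CD4 cells, 11 were higher and 9 lower, a share of 32.8% that was near the 30% of all genes. Crem had 9323 ± 1291 (SD, n = 3) against 2432 ± 573 (SD, n = 4), a change of 1.96 (SE 0.21, adjusted p 1.57e-07 by limma). P2rx4, an ATP-gated channel whose gene lies next to P2rx7 on chromosome 5, had 1700.5 ± 218 (SD, n = 3) against 571 ± 35.6 (SD, n = 4), a change of 1.57 (SE 0.20, adjusted p 3.59e-06 by limma). The P2rx4 mean in allogeneic CD4 cells, 567 ± 87.4 (SD, n = 4), lay below that of day 0, 989.8 ± 20.97 (SD, n = 2). P2ry10, a G protein-coupled receptor, was higher in recovered Treg by 2.35 (SE 0.34, adjusted p 1.84e-05 by limma). From day 0 to recovered Treg 9 rose and 4 fell (21.3%, beside 13.3% of all genes), with Crem up by 2.90 and P2ry14, a receptor for UDP-glucose, up by 2.84, and with Ampd1, an AMP deaminase, down from 121 to 3.999 (log2 change -4.61, SE 0.43, adjusted p 1.75e-08 by limma).

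Between allogeneic and syngeneic recipients 12 of the 61 rose and 7 fell in CD4 cells (31.1%, beside 14.6% of all genes), and 13 rose and 7 fell in CD8 cells (32.8%, beside 21.1%). Without CD4 syngeneic replicate JL019-2 the CD4 counts were 12 and 4, with 10.9% of all genes called. Ampd1 fell in both, from 462 ± 168 (SD, n = 3) to 12.6 ± 4.004 (SD, n = 4) in CD4 cells and from 339.6 ± 98.4 (SD, n = 3) to 8.80 ± 2.55 (SD, n = 4) in CD8 cells, changes of -5.06 and -5.11 with adjusted p of 8.76e-11 and 2.90e-11 by limma. Without CD4 syngeneic replicate JL019-2 the CD4 change of Ampd1 was -5.41 (adjusted p 1.24e-10). Art2a and Art2b, both ADP-ribosyltransferase genes, are near-identical copies. The counting could split their reads between them, so their values are uncertain. Whether either product acts on P2X7 in these cells was not tested. In CD4 cells Art2a had 37.04 ± 13.8 (SD, n = 3) in the syngeneic and 944 ± 178 (SD, n = 4) in the allogeneic arm. The syngeneic mean was 44.99 ± 0.13 (SD, n = 2) without replicate JL019-2. Without it the CD4 change of Art2b was -0.08 (adjusted p 0.908 by limma). Art2b was lower in allogeneic than in syngeneic CD8 cells relative to CD4 cells, a difference of changes of -2.36 (SE 0.33, adjusted p 4.79e-05 by limma), or -1.94 (adjusted p 3.80e-05) without that replicate. Enpp1, an ectoenzyme that splits ATP into AMP and pyrophosphate, rose in CD8 cells from 283 ± 37.9 (SD, n = 3) to 1442 ± 72.7 (SD, n = 4), by 2.35 on the log2 scale (SE 0.27, adjusted p 1.68e-07 by limma).

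Between Treg-treated and allogeneic CD4 cells 5 of the 61 rose and 13 fell (29.5%, beside 22.2% of all genes). Of 17 measured genes of cyclic AMP signalling, the route of this receptor, 9 fell and 1 rose (58.8%, beside 22.2% of all genes), with a median log2 change of -1.03. The 14 myeloid markers summed to 5512 to 11116 in the allogeneic and 23739 to 86389 in the Treg-treated libraries, and the 5 endothelial markers to 3528 to 4298 and 1400 to 3165. The slope of log2 values on log2 gene length was 0.019 to 0.045 in the allogeneic libraries, -0.069 to -0.12 in 3 of the Treg-treated ones and 0.016 in replicate JL027-1. The part of these differences in these counts was not tested, other than by removing the length trend below. The gene that rose was Crem, at 2432 ± 573 (SD, n = 4) against 932 ± 77.9 (SD, n = 4), by 1.35 (SE 0.19, adjusted p 0.000590 by limma). Art2b, outside this list, had 2919 ± 199 (SD, n = 4) against 1402 ± 289 (SD, n = 4). Pde7a, a phosphodiesterase that degrades cyclic AMP, fell by 1.19 (SE 0.29, adjusted p 0.0123 by limma). The number of genes of this list that fell differed between settings, as did the share of all genes called. It was 0 with 2.81% of all genes called when CD4 Treg-treated replicate JL019-2 was dropped, and 1 with 4.01% and 4.46% when JL019-1 or JL027-2 of that group was dropped. Dropping CD4 allogeneic replicate JL019-1 gave 1 with 8.64%, JL019-2 gave 4 with 6.8%, and JL027-2 gave 6 with 13.6%. The log2 mean value as a covariate gave 0 with 3.4%, and removing the gene length trend gave 6 with 19.8%. Other settings gave higher counts, 12 with array weights (47.5%) and 10 each with the recipient as a replicate block (22.4%), quantile normalisation (23.3%), only these groups in the model (25.1%), a minimum mean of 10 (25%) and without CD4 Treg-treated replicate JL027-1 (33.6%). In each of these settings 1 gene of the list was called higher. In CD8 cells Crem was the 1 called gene of the 61 (1.64%, beside 0.0657% of all genes), at 2404 ± 719.8 (SD, n = 4) against 1169.8 ± 125 (SD, n = 4), by 1.00 (SE 0.19, adjusted p 0.0424 by limma). That call was lost with median centring, with quantile normalisation, with the length trend removed, with only its 2 groups in the model and without 5 of the 8 libraries in turn (CD8 allogeneic replicates JL019-1, JL019-2 and JL027-2, CD8 Treg-treated replicates JL019-2 and JL027-2).

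**Figure D5:**
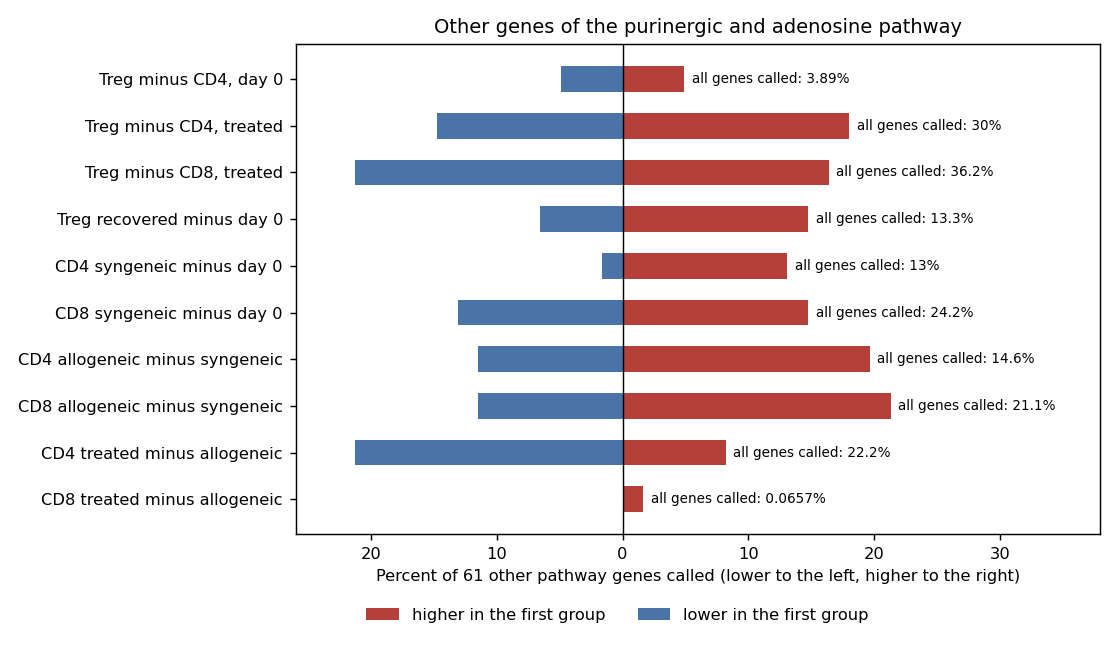
Percent of 61 other pathway genes called higher (right, red) or lower (left, blue) in the first group of each comparison, with the percent of all 16741 genes called written beside each bar. In CD4 cells 13 genes were lower and 5 higher in Treg-treated than in allogeneic recipients, and in CD8 cells 1 was higher.

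Genes with the pattern most like each of the 5 were sought by Pearson's r of the 10 group means of log2(value + 1), among 10712 genes. For Entpd1 these were Nfil3 (0.96), Fgl2 (0.96) and Cln3 (0.96). For Nt5e they were Lrrc61 (0.98), Cyp4v3 (0.96) and Ppm1l (0.95), for Adora2a Ikzf3 (0.97), Acsbg1 (0.96) and Slc52a3 (0.93), for P2rx7 B3gnt2 (0.96), Susd2 (0.95) and Dhrs3 (0.95), and for Ada Aqp9 (0.95), Pus1 (0.95) and Scart2 (0.94). The 10 groups share cell types, recipients and label prefixes. Over the 31 single libraries the same pairs had r between 0.74 and 0.92. Without CD4 syngeneic replicate JL019-2 the r of group means of these pairs was between 0.93 and 0.98.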

How the data were processed

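Bulk RNA of 31 libraries in 10 groups was analysed, made from full-length cDNA with the SMARTer v4 and Nextera XT kits, per the labels' protocols. The table holds normalised counts (a signal without units) that were deposited by the authors. The submitters' processing notes name FastQC 0.11.7, kallisto, DESeq2 and the builds GRCm38 and mm10, with no order or role. Raw counts were not used here, so the depth and its counting error are unknown.

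Each value was taken as log2(value + 1), and limma 3.58.1 in R 4.3.3 was fitted over all 31 libraries with 1 mean per group and a trended, robust variance. The 17 comparisons were tested over 16741 genes, two-sided, with Benjamini-Hochberg adjustment and a threshold of 0.05. A minimum mean value of 1 removed 0 genes. Tables and plots were made with Python 3.11.15, numpy 2.4.6, pandas 2.3.3 and matplotlib 3.10.9, and the fit was tested on simulated data. Groups came from the sample titles, and 0 columns of samples had no label. The 5 genes and all lists were chosen with earlier results of these data known. Of the other pathway genes, up to 3 with the lowest p among those called in a comparison could be named, and of genes with a like pattern the 3 with the highest r among those with a mean of at least 50. Art2b in CD4 cells and P2rx4 are given for comparison.

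Libraries share recipient numbers in their titles, which the labels do not say mark 1 animal. Of 15 such pairs after transplantation 9 had deviations correlated above 0.1 (range -0.11 to 0.43). The main fit did not model this pairing, and calls that changed with the recipient as a replicate block are given below. Alternatives were other pseudocounts, filters, scalings, blocks, covariates and weights, and leaving out each library in turn. The T cell receptor sequencing sample and the deposited fold changes and p-values, which name no groups, were left out.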

Additional observations from a re-analysis of the deposited data

Results flagged for a closer look

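For 3 results the difference of a change between cell types or times was itself tested and called with limma. The Treg to CD4 difference of P2rx7 changed by -1.33 on the log2 scale from day 0 to Treg-treated recipients (adjusted p 0.0161). The change of P2rx7 from syngeneic to allogeneic recipients was lower in CD8 than in CD4 cells by -1.79 (adjusted p 0.000199). For Ada the same difference was -1.17 (adjusted p 0.0353). The Ada call was lost in 9 of 14 fits without 1 library and in 2 of 11 other settings. The P2rx7 call of -1.79 was lost in 0 of 14 such fits. Its call of -1.33 was lost without some libraries, as given above, among them recovered Treg replicate JL019-1 (adjusted p 0.0516 by limma). Among 20 sets of 4 libraries (5 genes in 4 groups), 0 had a library apart by Dixon's test at the 95% level. Groups of 2 or 3 libraries, among them CD4 syngeneic with replicate JL019-2, were not tested in this way.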

How the results depend on the processing

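Of 85 log2 changes (5 genes in 17 comparisons), 36 were called and 22 of these were called under every setting run. None of the 36 changed sign in any setting, and 15 that were not called did. With groups of 2 to 4 libraries, and with unknown depth, small changes may go undetected. A pseudocount of 0.1 changed no call, no filter gave the same fit because the filter removed 0 genes, and a minimum mean of 10 changed 1. Centring on medians moved the median of all genes by over 0.1 in several comparisons, by -0.22 between recovered Treg and Treg-treated CD4 cells and by 0.20 between Treg-treated and allogeneic CD4 cells.

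The recipient as a replicate block made 3 further calls, Ada for the change of the Treg to CD4 difference (1.16, adjusted p 0.0453) and between recovered Treg and CD4 cells (-0.59, adjusted p 0.0442), and Nt5e for the CD8 to CD4 difference of the allogeneic changes (-1.69, adjusted p 0.0490), so that the count for the change of the Treg to CD4 difference went from 1 to 2 (9.45% of all genes). The label prefix as a block ended 1 call, Adora2a between recovered Treg and CD4 cells (1.32, adjusted p 0.0535). These blocks changed no other call.

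Array weights, whose estimation stopped before convergence, gave 4 called genes for the CD8 to CD4 difference of the allogeneic changes, 5 for CD4 allogeneic against day 0, 2 for CD4 syngeneic against day 0, 4 for CD4 Treg-treated against allogeneic, 3 for CD8 against CD4 in allogeneic recipients, 5 for CD8 allogeneic against syngeneic, 2 for CD8 against CD4 at day 0, 2 for the CD8 to CD4 difference of the Treg-treatment changes, 3 for the change of the Treg to CD4 difference and 3 for recovered against day 0 Treg. The share of all genes called moved in the same way, in these comparisons in order to 24.4%, 47.4%, 25.2%, 47.5%, 18.1%, 61.6%, 7.33%, 20.2%, 39.2% and 25.7%, each above the share without weights. With only the groups compared these were 1 for the difference of the allogeneic changes, 5 for CD4 allogeneic against day 0, 0 for CD4 syngeneic against day 0, 2 for CD8 against CD4 in allogeneic recipients and 4 for recovered against day 0 Treg, with 2.95%, 39.6%, 1.4%, 10.8% and 23.9% of all genes called. Quantile normalisation gave 1 for the difference of the allogeneic changes, 2 for CD4 syngeneic against day 0, 0 for CD4 Treg-treated against allogeneic and 2 for recovered against day 0 Treg, with 3.91%, 18.4%, 23.3% and 15.8% of all genes called. The log2 mean value as a covariate gave 0 for both CD4 syngeneic against day 0 and CD4 Treg-treated against allogeneic, and 2 for both the change of the Treg to CD4 difference and recovered against day 0 Treg, with 12.9%, 3.4%, 8.24% and 26.8%. Median centring gave 0 for CD4 Treg-treated against allogeneic (23.1%). Removing the gene length trend, chosen after seeing the data, gave 2 for CD4 syngeneic against day 0 (14.1%). Leaving out 1 library gave counts of 1 to 3 for the difference of the allogeneic changes (3.2% to 5.92% of all genes), 0 to 2 for CD4 syngeneic against day 0 (5.63% to 16.3%) and for CD4 Treg-treated against allogeneic (2.81% to 33.6%), 2 to 4 for CD8 allogeneic against day 0 (16.7% to 29.4%), 1 to 2 for CD8 against CD4 at day 0 (1.59% to 2.03%), 2 to 3 for Treg against CD4 at day 0 (1.56% to 1.8%) and 0 to 1 for the change of the Treg to CD4 difference (1.97% to 16%).

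The sign of some changes that were not called differed between settings, and the cause was not tested. For Entpd1 this was so in CD8 Treg-treated against allogeneic cells (0.078 with array weights, 0.12 with the length trend removed, 0.071 with median centring, -0.093 to 0.085 without 1 library) and in CD4 syngeneic cells against day 0 (-0.032 with array weights, -0.094 to 0.80 without 1 library). For Nt5e this was so in CD8 Treg-treated against allogeneic cells (-0.098 to 0.38 without 1 library), in CD4 allogeneic against syngeneic cells (-0.39 with array weights, -0.056 with the covariate, -0.35 to 0.44 without 1 library), in CD8 against CD4 cells at day 0 (-0.045 to 0.38 without 1 library) and in CD8 syngeneic cells against day 0 (0.63 with the covariate). For Ada this was so in CD4 Treg-treated against allogeneic cells (-0.12 with the covariate) and in CD8 Treg-treated against allogeneic cells (-0.19 with the covariate, -0.039 to 0.25 without 1 library). For Adora2a this was so in CD8 Treg-treated against allogeneic cells (0.22 with the covariate, -0.69 to 0.033 without 1 library), in CD4 syngeneic cells against day 0 (0.30 with the covariate, -1.34 to 0.035 without 1 library), in CD8 against CD4 allogeneic cells (-0.047 to 0.47 without 1 library), in the change of the Treg to CD4 difference (-0.015 with the covariate) and in recovered Treg against CD8 cells (-0.22 with array weights, -0.85 with the covariate, -0.15 to 0.49 without 1 library). For P2rx7 this was so in CD4 syngeneic cells against day 0 (0.012 with array weights, 0.0021 with the covariate, -0.19 to 0.088 without 1 library) and in CD8 allogeneic against syngeneic cells (-0.28 to 0.012 without 1 library).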
